A study of Mus musculus with 15 samples.

Results

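The clustered protocadherins were followed in developing mouse Purkinje cells (PCs). The genes were taken as every row of the count tables whose identifier carries a symbol beginning with Pcdha, Pcdhb or Pcdhg in the GENCODE M21 annotation, which gave 24 of 38561 gene rows: 1 alpha row, 22 beta rows and 1 gamma row. PC RNA was sequenced in 3 biological replicates on each of 5 postnatal days (P0, P4, P8, P14 or P21), which makes 15 samples. All samples came from male C57/BL6 mice (the strain is spelled C56/BL6 in the labels), and no genotype or treatment sets the groups apart. PCs were cut from cerebellar sections by laser, as 1000 individual somata per sample from P4 on and as clusters of PCs from 6 sections at P0, so age and the kind of capture cannot be told apart wherever P0 is compared with a later day.

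Clustered protocadherins are cadherin-like proteins of the neuronal surface that bind the same isoform on a facing membrane. Each neuron uses a limited set of them, which gives it a surface identity, and PCs rely on the gamma proteins for sister dendrites to avoid each other. Alpha and gamma transcripts join a variable first exon, which encodes the extracellular part, to constant exons that encode a shared cytoplasmic end, whereas each beta gene is a single exon with no shared end. Promoter choice depends on DNA methylation, on CTCF and on cohesin looping to distant enhancers.

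In GENCODE M21 (GRCm38) the family holds 58 genes (14 alpha, 22 beta, 22 gamma) on the plus strand of chromosome 18, with the alpha cluster at 36930184-37187661, the beta cluster at 37264938-37524479 and the gamma cluster at 37661793-37841873. The 22 beta genes each had a row. Of the others, 34 (13 alpha and 21 gamma) had no row, and all 34 have identifiers numbered above the highest in the files. The alpha row (ENSMUSG00000007440, named Pcdha11 in M21) shares 2860 exon bases, those of the constant exons, with each of most other alpha genes in M21. The gamma row (ENSMUSG00000023036, named Pcdhgc4) shares 2116 to 2119 bases with most of its neighbours. With no other alpha or gamma row in the tables, reads on constant exons had no second clustered protocadherin row to be ambiguous with. The exons counted in these rows are not given in the sources used here. They are therefore called the alpha row and the gamma row, their counts cannot be assigned to single isoforms, and their levels were not compared per length. Of the C-type isoforms (Pcdhac1, Pcdhac2, Pcdhgc3, Pcdhgc4 and Pcdhgc5), Pcdhgc4 alone has a row under its own identifier, and it is the gamma row. The beta genes share no annotated exon base except 455 bases between Pcdhb21 and Pcdhb22. They are close paralogs, and only uniquely mapped reads were counted, so reads from near-identical stretches are missing from their rows.

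Between 3409371 and 7814951 reads per sample fell on genes. The 7 PC markers summed to 4632-6145 CPM (counts scaled by library size to a common total, with TMM factors) at P0 and to 38360-47969.9 CPM at P21, and all 7 rose with age. Markers of other cells also moved with age. The 4 cycling-cell markers (top gene Top2a) fell from 385-415 CPM at P0 to 0.334-2.54 CPM at P21, and the 6 oligodendrocyte markers (top gene Cnp) went from 14.04-59.8 to 626-1286 CPM. The 8 Bergmann glia and astrocyte markers (top gene Fabp7) summed to 4007-5627 CPM at P0 and 8209-9825 CPM at P8. Their sum was 6307-6648 CPM at P14 and 3147-4747 CPM at P21. Single glial markers moved in different directions. In the edgeR trend test with postnatal day, 3 of the 8 rose and 2 fell (12.1% and 14.1% of all genes). From P8 to P14 the mean of Fabp7 went from 4662 to 1107 CPM, and that of Slc1a3 from 2388 to 3522 CPM. Granule neuron markers (top gene Neurod1) lay between 210.0 and 1094 CPM, basket and stellate markers (Cck) between 107 and 349.5 CPM, and vascular markers (Cldn5) between 16.0 and 121 CPM over the 15 samples. Of the 6 granule neuron markers, 2 rose in that trend test and 0 fell (12.1% and 14.1% of all genes), with Atoh1 not tested. Gabra6 had means of 0.0641, 4.25, 103 and 63.5 CPM at P0, P8, P14 and P21. Cbln3 had 0.132, 5.34, 87.4 and 73.9 CPM at the same ages. Golgi cell (Grm2), microglial (Csf1r) and meningeal and choroid markers (Col1a1) stayed at or below 38.5, 25.5 and 85.4 CPM. Their part in the results that follow was not tested. In such pooled captures, fewer cells of a type and less RNA per cell cannot be told apart.

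The alpha row rose over the 3 weeks. It held 333, 345 and 309.9 CPM in the 3 P0 samples, 271, 368 and 432 CPM at P4, and 560.2, 465 and 468 CPM at P8. It held 564, 462 and 561 CPM at P14 and 559, 534 and 645 CPM at P21. With TMM scaling, every sample from P8 on lay above every P0 and P4 sample, and the 3 later time points overlapped each other. The mean went from 329 ± 17.8 CPM at P0 (SD, n = 3) to 579.7 ± 58.2 CPM at P21 (SD, n = 3). The slope was 0.040 ± 0.0088 (SE) log2 units per day, with an adjusted p of 0.00192 in edgeR's quasi-likelihood test over 14293 genes. P21 exceeded P0 by 0.82 ± 0.18 (SE) on the log2 scale, a 1.76-fold difference (edgeR adjusted p = 0.00331). The largest neighbouring step was P4 to P8, at 0.48 on the log2 scale, and it did not pass the test (edgeR adjusted p = 0.280). Without the P0 samples the slope was 0.037 per day (edgeR adjusted p = 0.0332).

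The gamma row rose as well, with its largest neighbouring difference from P8 to P14. Its P0 samples held 448, 517 and 379 CPM, its P4 samples 749.6, 509 and 569 CPM, and its P8 samples 699, 542 and 694 CPM. At P14 it reached 1099.8, 769 and 1099 CPM, and at P21 it held 935, 987 and 1181 CPM. With TMM scaling, all P14 and P21 samples lay above all earlier ones, and P4 overlapped both P0 and P8. The mean went from 448 ± 69.1 CPM at P0 (SD, n = 3) to 1034 ± 129.6 CPM at P21 (SD, n = 3), a 2.31-fold difference. The slope was 0.059 ± 0.0096 (SE) log2 units per day (edgeR adjusted p = 0.000133), and the P21 minus P0 difference was 1.21 ± 0.20 (SE) on the log2 scale (edgeR adjusted p = 0.000306). Neither the P8 to P14 difference of 0.62 ± 0.20 (SE) nor the P0 to P4 difference of 0.44 ± 0.20 (SE) passed the test (edgeR adjusted p = 0.124 and 0.304). Without the P0 samples the slope was 0.052 per day (edgeR adjusted p = 0.00480).

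Within a sample, the gamma row's CPM divided by the alpha row's does not depend on library scaling. It lay between 1.22 and 1.501 at P0 and between 1.17 and 1.48 at P8, and between 1.66 and 1.96 in the 6 samples of P14 and P21. At P4 it was 1.39 and 1.32 in 2 replicates and 2.77 in replicate 1, which had both the lowest alpha value and the highest gamma value before P14. The ratio at P14 and P21 was thus above that of every P0 and P8 sample, and below that of P4 replicate 1. No test was made of this ratio, as the rows were chosen with earlier results known.

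The 22 beta genes together were higher at P14 and P21 than before. Their summed level was 118, 232 and 146 CPM at P0, 129.8, 172 and 193 CPM at P4, and 148, 192 and 179 CPM at P8. It then stood at 294, 259 and 317 CPM at P14 and at 302, 306 and 270.5 CPM at P21. With TMM scaling, the 6 samples of the last 2 time points lay above all 9 earlier ones, and P0, P4 and P8 overlapped. The mean was 1.68 times higher at P14 than at P8 and differed by less than the spread between replicates from P14 to P21, at 289.9 ± 29.1 and 293 ± 19.7 CPM (SD, n = 3 each). A sum over chosen genes was given no test.

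**Figure D1:**
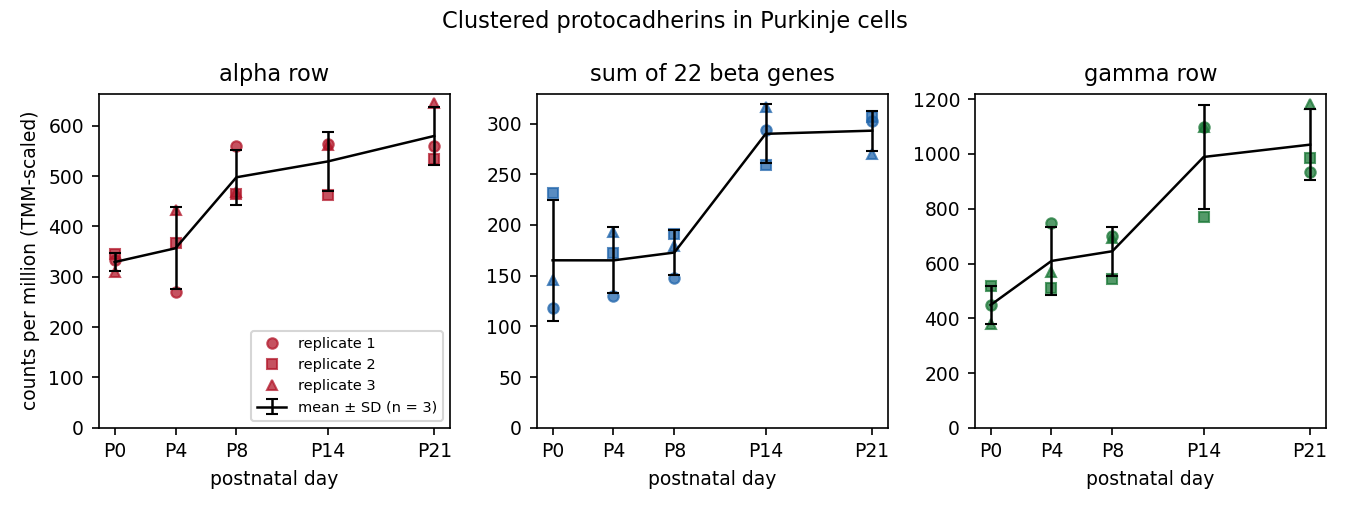
Level of the alpha row, the sum of the 22 beta genes and the gamma row against postnatal day, in TMM-scaled CPM, each panel with its own axis from 0. Symbols are single samples and the black line joins the mean ± SD of 3 samples; the largest difference between neighbouring means is from P4 to P8 for the alpha row and from P8 to P14 for the beta sum and the gamma row.

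These sizes depend on the scaling. When CPM were taken from total counts without TMM factors, the median log2 ratio of P21 to P0 over all genes tested moved by -0.32. The alpha row, the beta sum and the gamma row then differed between P21 and P0 by 0.46, 0.47 and 0.85 on the log2 scale, in place of 0.82, 0.83 and 1.21, so that each stayed above 0 and above the shifted median of -0.42. Under that scaling the P8 samples of the alpha row still lay above all P4 samples, but those of P14 and P21 reached down to 440.2 and 454 CPM against a highest P4 value of 468 CPM. The beta sum at P14 still lay above all P8 samples (1.51-fold). It overlapped P0 at both later ages, reaching down to 246.7 CPM at P14 and 241 CPM at P21 against a highest P0 value of 260.5 CPM. The gamma row of P14 reached down to 733 CPM, against highest values of 736 CPM at P8 and 803 CPM at P4.

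Single beta genes were low. On the RPKM scale (CPM of total counts divided by the kilobases of exon), the 22 genes had a median of 1.85 over the 15 samples, and the highest 3 were Pcdhb9 (6.995), Pcdhb20 (6.33) and Pcdhb7 (5.53). Pcdhb17 (4.50), Pcdhb16 (3.21), Pcdhb21 (3.07), Pcdhb12 (3.03), Pcdhb19 (2.71), Pcdhb15 (2.61) and Pcdhb4 (2.44) came next on the same scale. The SD between replicates of a time point was 2.57 RPKM for Pcdhb9, 4.97 RPKM for Pcdhb20 and 5.90 RPKM for Pcdhb7, and each of the 22 genes lay closer to the next in this order than its own such SD, the last, Pcdhb1, apart. Pcdhb1, the first gene of the cluster, had no read in any of the 15 libraries, which allows at most 3 counts per library, or 0.384 to 0.8799 CPM of the total, for counting error only. Pcdhb2 had reads in 6 samples, 41 of its 83 in P0 replicate 2.

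Pcdhb9 was found in every sample, at 19.6, 5.95 and 17.0 CPM at P0, at 20.6, 14.1 and 20.9 CPM at P4, and at 27.2, 35.5 and 21.3 CPM at P8. It stood at 34.8, 18.0 and 28.4 CPM at P14 and 33.4, 15.04 and 10.7 CPM at P21, with all time points overlapping P0 except P8. Its slope was 0.023 ± 0.026 (SE) per day (edgeR adjusted p = 0.574). Pcdhb20 ranged far more widely within a time point. It had 7.88, 30.0 and 17.0 CPM at P0, 0.981, 3.11 and 49.7 CPM at P4, 18.1, 32.2 and 50.3 CPM at P8, then 20.6, 20.1 and 19.8 CPM at P14 and 41.1, 6.35 and 18.3 CPM at P21. All its time points overlapped, and the slope was 0.0078 ± 0.043 (SE) per day (edgeR adjusted p = 0.923). Pcdhb7 went from no read in P0 replicate 1 to 72.6 CPM in replicate 2 (366 reads) and 21.7 CPM in replicate 3. It held 23.8, 1.68 and 24.2 CPM at P4, 6.85, 12.6 and 13.2 CPM at P8, 9.02, 14.9 and 33.4 CPM at P14, and 10.3, 23.5 and 16.5 CPM at P21. Its slope of -0.028 ± 0.046 (SE) per day was the single negative value among the beta genes tested (edgeR adjusted p = 0.707), and it was 0.025 without P0 replicate 2.

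**Figure D2:**
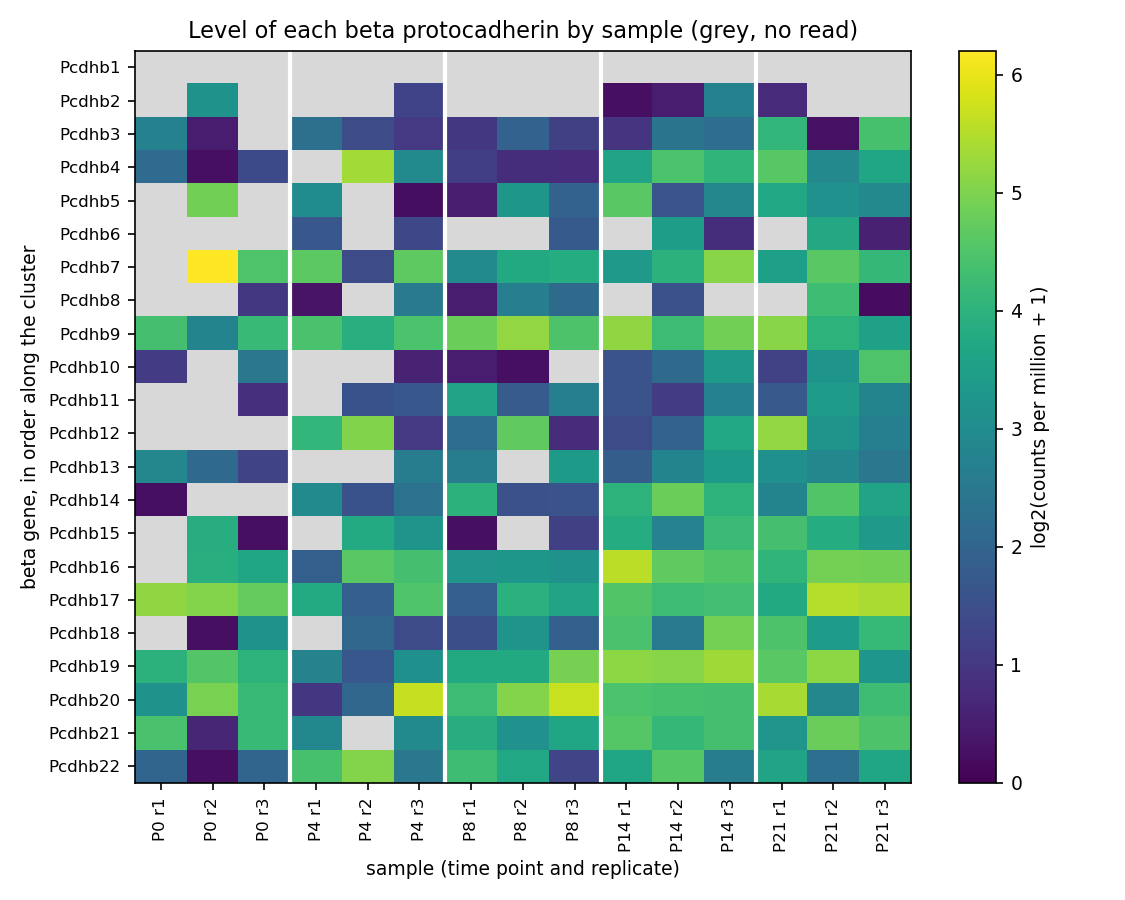
Level of each of the 22 beta genes (rows, in order along the cluster) in each of the 15 samples (columns, by time point and replicate), as log2(CPM + 1); grey marks no read. Grey cells thin out from 25 of 66 at P0 to 6 of 66 at P14 and 7 of 66 at P21, and neighbouring replicates of 1 gene often differ in colour.

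Of the 24 rows, 22 had enough reads to be tested (all but Pcdhb1 and Pcdhb2). The filter keeps a gene that is high at any 1 time point. In the edgeR test of a straight trend with postnatal day, 3 of the 22 rose, the alpha row, the gamma row and Pcdhb14, against 12.1% of all 14293 genes tested. None fell, against 14.1% of all genes. DESeq2 called 4 rows rising (13.3% of all genes), and limma-voom called 10, of which 8 were beta genes (15.7% of all genes). Also by DESeq2 and by limma-voom none fell, and by none of the 3 tools had a row a negative slope at an unadjusted p below 0.05. The count of rising rows was thus near the background by edgeR and DESeq2 and above it by limma-voom. At an unadjusted p below 0.05 in edgeR, 6 of the 22 had a slope above 0, against 16.6% of all genes. The edgeR test for any change over the 5 time points called the same 3 rows, against 19.3% of all genes. DESeq2 called 7 rows (27.5% of all genes) and limma-voom 5 (23% of all genes) for any change, so that count was below the background by edgeR and near it by the others. Without the P0 samples, which were captured in another way, the edgeR trend called the alpha row, the gamma row, Pcdhb10 and Pcdhb18 rising (10.2% of all genes). The test for any change then called the gamma row, Pcdhb10 and Pcdhb19 (15.5% of all genes), and the alpha row and Pcdhb14 lost that call.

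Pcdhb14 was the beta gene called in both tests. It had 1, 0 and 0 reads at P0 and 28, 15 and 23 at P4, or 6.87, 1.94 and 3.94 CPM. It then held 14.9, 1.91 and 1.99 CPM at P8, 15.1, 27.0 and 14.97 CPM at P14, and 6.01, 22.03 and 11.4 CPM at P21. All later samples lay above the P0 samples, and all P14 samples above all P8 samples. The slope was 0.22 ± 0.073 (SE) per day (edgeR adjusted p = 0.0351, and 0.00738 for any change). From the summed reads, P21 was 209.75 times P0, with a 95% exact interval of 37.2 to 8327 that covers counting error only and rests on the 1 read at P0. The trend call was lost without the P0 time point (slope 0.12, adjusted p = 0.160), and on leaving out any 1 of the 3 P0 or the 3 P14 samples, P4 replicate 2 or P21 replicate 2, with adjusted p between 0.0513 and 0.0673 by edgeR.

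Among the steps, 2 of the 22 rows differed between P4 and P0, Pcdhb12 and Pcdhb14, both higher at P4 (edgeR adjusted p = 0.0428 and 0.0418, against 1.97% of genes called). Pcdhb12 is named here after its values were seen. It had no read in the 3 P0 samples, 66, 243 and 6 reads at P4 (16.2, 31.4 and 1.03 CPM), 3.63, 24.8 and 0.723 CPM at P8, 1.66, 2.87 and 12.1 CPM at P14, and 35.4, 8.26 and 5.44 CPM at P21. Every later sample lay above P0 and the later time points overlapped. Against a floor of 3 reads over the P0 group, P4 was at least 90.3-fold higher and P21 at least 64.8-fold higher. Single libraries carry much of this, as 243 of the 315 reads at P4 were in replicate 2 and 106 of the 179 at P21 in replicate 1, and without them the bounds were 36.7-fold and 33.7-fold. Neither P4 call survived leaving out any 1 P0, P14 or P21 sample, or P4 replicate 1. The edgeR tests called no row between P4 and P8 (1.13% of genes called), P8 and P14 (2.67%) or P14 and P21 (0.329%), with 3, 4 and 0 rows at an unadjusted p below 0.05 (11.8%, 13.4% and 7.02% of all genes). DESeq2 called 1 row (Pcdhb4), 2 rows (Pcdhb4 and the gamma row) and 0 rows in these steps, against 3.47%, 5.9% and 1.21% of all genes. Between P0 and P21, 4 of the 22 were higher at P21, the alpha row, the gamma row, Pcdhb12 and Pcdhb14, against 12.2% of genes.

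Although few single genes passed the test, the slopes lay to 1 side. Of the 20 beta genes tested, 19 had a slope above 0 (95%) against 44.9% of all genes tested, and the median slope was 0.073 per day against -0.0077. Slopes ran from -0.028 (Pcdhb7) to 0.22 (Pcdhb14), and after Pcdhb14 came Pcdhb6 (0.21), Pcdhb18 (0.16), Pcdhb10 (0.15) and Pcdhb11 (0.14), none past the threshold. Of the 62 reads of Pcdhb6 at P21, 59 were in replicate 2. The sign tally was 17 of 20 without the P0 samples, where Pcdhb9, Pcdhb20 and Pcdhb22 lay below 0, and between 18 and 20 of the 20 or 21 beta genes tested in the other fits. The genes share their libraries and a scaling, and no test was made over the list.

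**Figure D3:**
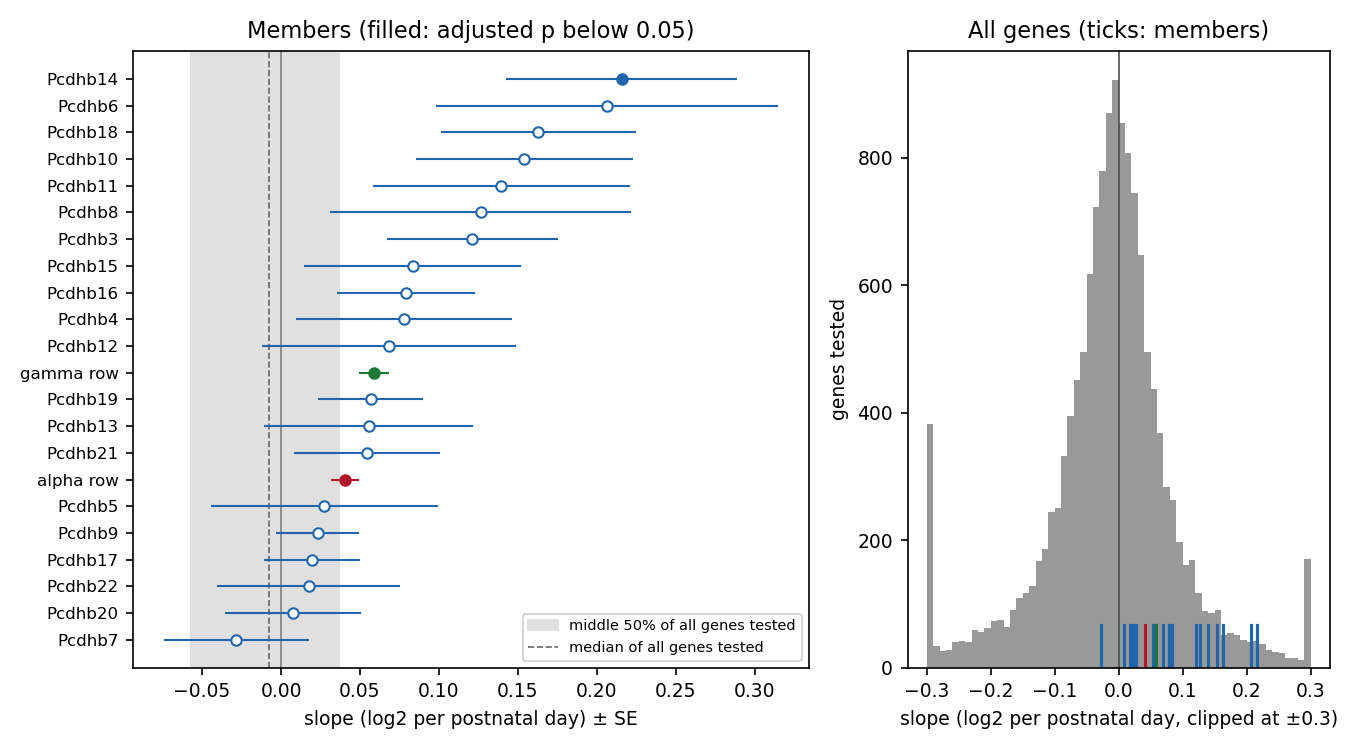
Left, slope in log2 units per postnatal day ± SE for the 22 rows tested, with alpha in red, beta in blue and gamma in green, filled where the edgeR adjusted p is below 0.05; the grey band holds the middle 50% of all 14293 genes. Right, the distribution over all genes, with the 22 rows as ticks: 21 lie above 0, and the alpha and gamma rows have the shortest error bars.

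From P8 to P14 the samples of several rows separated upward. In 9 of the 22 rows the 3 P14 samples all lay above the 3 P8 samples, against 12.8% of all genes tested, and in 0 rows they all lay below (12.7% of all genes). The 9 were the gamma row and Pcdhb4, Pcdhb10, Pcdhb14, Pcdhb15, Pcdhb16, Pcdhb17, Pcdhb19 and Pcdhb21. With CPM of total counts, 7 of the 9 kept this separation, the gamma row and Pcdhb14 being lost, against 9.63% of all genes. Pcdhb19 shows the pattern, with 12.7, 12.6 and 29.3 CPM at P8 and 34.6, 33.1 and 39.0 CPM at P14 (edgeR adjusted p = 0.571). From P0 to P21 the samples separated upward in 9 rows, against 19.4% of all genes, and downward in 0 rows (18.2%). These 9 were the alpha and gamma rows, Pcdhb4, Pcdhb11, Pcdhb12, Pcdhb14, Pcdhb16, Pcdhb18 and Pcdhb22, of which 6 kept the separation with total counts (14.4% of all genes).

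More beta genes were seen at later ages, and the reads were spread more evenly over them. With every library thinned by formula to the smallest total of 3409371 counts, 10.7, 14.2 and 14.8 of the 22 beta genes had a read at P0, and 13.9, 13.998 and 20.6 at P4. The number was 18.5, 16.7 and 19.0 at P8, 18.6, 20.9 and 19.98 at P14, and 19.0, 19.6 and 19.4 at P21. All P8, P14 and P21 samples lay above all P0 samples, and P4 spanned both ranges. Thinning the library leaves fewer beta reads in the early samples, since the beta sum is lower there. With the beta reads of every sample thinned to 529, the fewest in any sample, the P0 samples held 10.9 to 14.7 genes and the P8, P14 and P21 samples 16.5 to 20.6, a comparison chosen after the data were seen. Over the time points in turn, values of 0 made up 37.9%, 25.8%, 16.7%, 9.09% and 10.6% of the values of all 22 beta genes. Over all genes tested the shares were 11.2%, 8.63%, 6.42%, 6.57% and 9.57%. The 2 sets are unlike, since the beta shares include Pcdhb1 and Pcdhb2, which failed the filter that all genes tested had passed. At P14, 3 of the 6 beta zeros were those of Pcdhb1. At P21, Pcdhb1 held 3 and Pcdhb2 held 2 of the 7 beta zeros. Over all genes, also thinned to the smallest total, 13791-14228 had a read in the P0 samples and 13811-15188 in those of P4. The ranges were 14618-15008 for P8, 14532-14800 for P14 and 13675-14638 for P21. The P8 and P14 samples thus lay above the P0 samples for all genes as well, and the P21 samples overlapped them.

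The effective number of beta genes (the inverse Simpson index, the number of equally used genes that would give the same evenness) was 5.80, 6.003 and 8.73 at P0, and 8.45, 6.52 and 8.08 at P4. It was 9.79, 9.44 and 7.14 at P8, 11.4, 13.04 and 14.1 at P14 and 12.8, 13.2 and 13.3 at P21. The P14 and P21 samples lay above all 9 earlier ones. At P0 a single gene took 29.7%, 31.3% and 17.5% of the beta counts, Pcdhb17 in replicates 1 and 3 and Pcdhb7 in replicate 2. At P21 the top gene took 13.6%, 14.6% and 15.5%, Pcdhb20 in replicate 1 and Pcdhb17 in the others. The share of the 3 highest genes was 55.4 ± 10.1% at P0 and 35.2 ± 1.19% at P21 (SD, n = 3 each). The means of both the number and the evenness were lowest at P0, in the samples captured as clusters of cells. The paper's results name 1000 PCs for every time point, whereas its methods give no cell number for the P0 clusters. That capture's part in the P0 values was not tested. Between P8 and P14 the effective numbers did not overlap, whereas the numbers of beta genes with a read did.

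**Figure D4:**
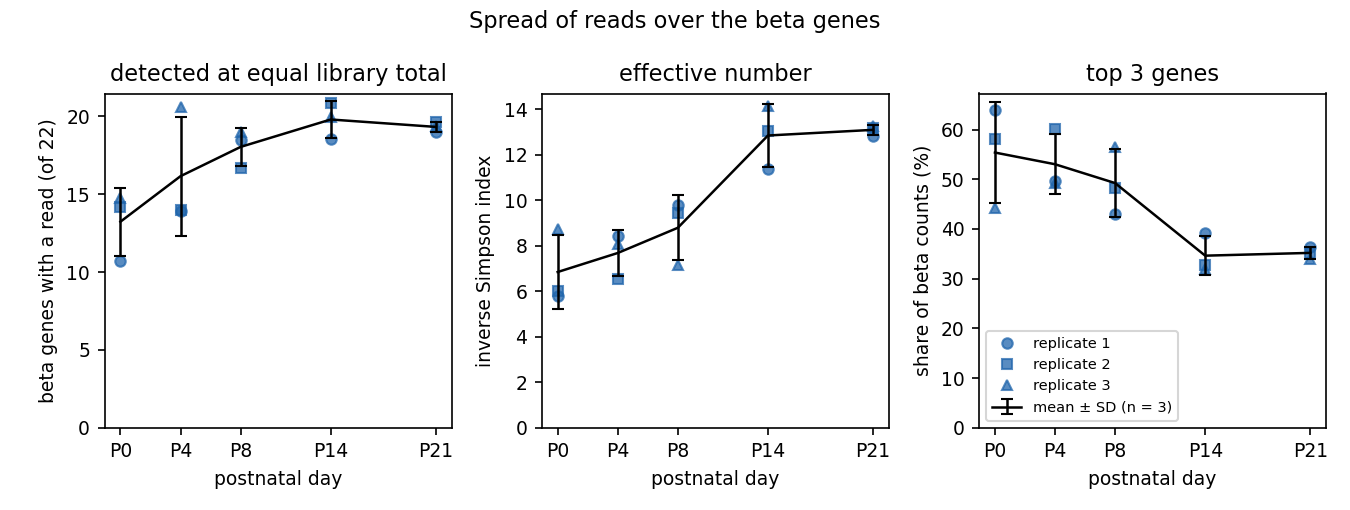
Spread of reads over the beta genes against postnatal day: genes with a read (of 22) with libraries thinned to an equal total, inverse Simpson index, and share of the beta counts in the 3 highest genes of a sample (percent). Symbols are samples and the black line joins mean ± SD (n = 3); the index is above 11 in all P14 and P21 samples and below 10 in all earlier ones.

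Replicates of a time point differed widely in which beta genes they held. The median coefficient of variation of single beta genes was 119% and 90.6% in the P0 and P4 groups and 75.3%, 60.2% and 61.01% in the P8, P14 and P21 groups. That of their sum, in which differences of single genes partly cancel, was 36.0%, 19.6%, 12.9%, 10.04% and 6.71% in the same order, and at P0 it was wider than that of the alpha row (5.40%) and the gamma row (15.4%). Low genes vary more through counting alone, so edgeR's biological coefficient of variation, which is what remains after counting error, was set against the trend of all genes with abundance. Its median over the 20 beta genes tested was 1.03 (0.485 to 2.01), against 0.572 over all genes tested, most of which are more abundant. It lay above the trend for 12 of the 20 beta genes (60.0%), against 40.3% of all genes. Pcdhb9, the most abundant per length, varied less than the trend (0.485 against 0.607), and Pcdhb20 (0.816 against 0.595) and Pcdhb7 (0.964 against 0.646) varied more. The alpha row (0.178 against 0.244) and the gamma row (0.193 against 0.238) lay below the trend.

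**Figure D5:**
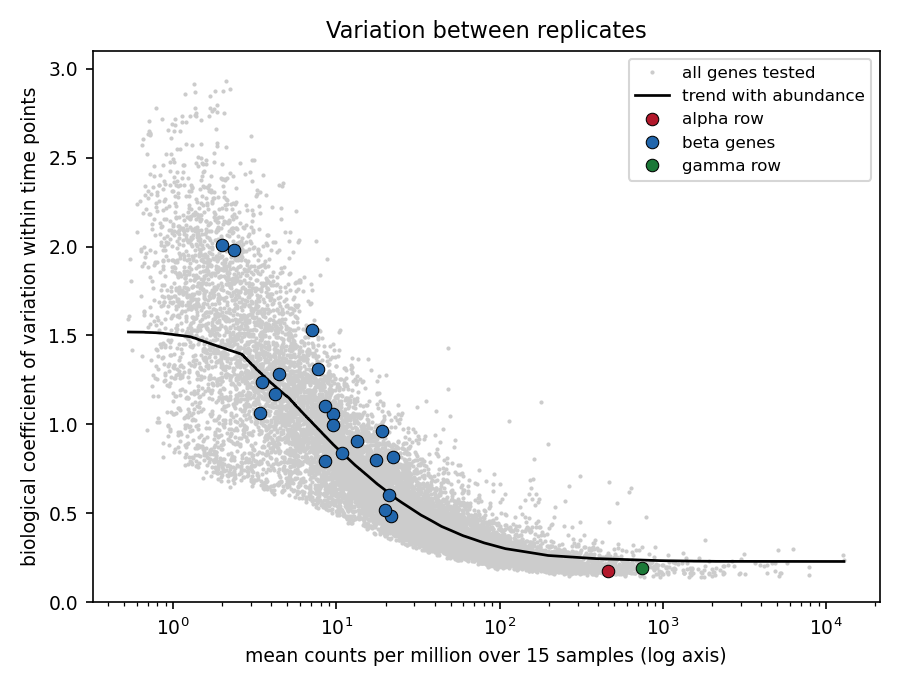
Biological coefficient of variation within time points against mean CPM over the 15 samples (log axis), for all genes tested (grey), with edgeR's trend (black) and the alpha row, beta genes and gamma row as coloured points. The beta genes scatter on both sides of the trend, 12 of 20 above it, and the alpha and gamma rows sit just under its flat end.

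Beta genes in the second part of the cluster, nearer the gamma genes, were on the whole higher. The median level per length was 1.05 RPKM for genes 1 to 11 in genomic order and 2.71 RPKM for genes 12 to 22, and 51 of 165 values were 0 in the first set against 15 of 165 in the second. Spearman's rho between order and level was 0.51 over 22 genes that share their libraries, given as a description. Exceptions are Pcdhb9 and Pcdhb7 in the first part, and Pcdhb14 in the second, at 0.93 RPKM. The annotated exon of Pcdhb14 is the longest of the beta genes, at 8695 bases, and a level per length depends on the annotated length.

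Other genes of the pathway were read from lists arranged by role. Adjusted p printed for listed genes are those of the edgeR trend test with postnatal day, unless another test is named. Of 18 regulators of the clusters, 1 rose and 6 fell in the edgeR trend test, against 12.1% and 14.1% of all genes. Without the P0 samples 1 rose and 2 of 17 fell (10.2% and 11% of all genes). The edgeR test for any change called 2 of the 18, Dnmt3a and Wiz, against 19.3% of all genes. Wiz, a zinc finger partner of CTCF-bound loops and of G9a, rose from 36.2 ± 9.73 CPM at P0 to 107 ± 5.31 CPM at P21 (SD, n = 3). Its edgeR adjusted p was 0.000397 for the trend and 0.00462 for P21 against P0. Ctcf, which binds the promoters and enhancers, fell from 101 ± 35.2 to 48.0 ± 4.45 CPM (edgeR trend adjusted p = 0.0343). For P21 against P0 alone it did not pass (edgeR adjusted p = 0.0502). The cohesin subunit Rad21 fell from 113 ± 45.8 to 38.0 ± 22.2 CPM (edgeR trend adjusted p = 0.00410). The cohesin loader Nipbl fell with a slope of -0.039 per day (edgeR adjusted p = 0.0330), and it did not pass for P21 against P0 (edgeR adjusted p = 0.0944). The other 7 cohesin subunits and cohesin-bound regulators listed (Smc1a, Smc3, Stag1, Stag2, Wapl, Pds5a and Pds5b) did not pass the test, with slopes from -0.054 (Stag1) to 0.022 (Wapl) per day and edgeR adjusted p from 0.0780 to 0.900. Of the methyltransferases, Dnmt3a fell from 259.5 ± 43.7 to 113 ± 28.0 CPM (edgeR adjusted p = 0.00185), Dnmt1 from 42.3 ± 29.9 to 14.6 ± 8.34 CPM (edgeR adjusted p = 0.0143), and the histone methyltransferase Setdb1 from 64.2 ± 26.1 to 25.3 ± 7.81 CPM (edgeR adjusted p = 0.0310). Dnmt3b, which methylates promoters of the clusters in the embryo, had 7.21 ± 1.79 CPM at P0 and 0.990 ± 1.204 CPM at P21 (edgeR adjusted p = 0.298). Smchd1, a silencer of the clusters, had 53.1 ± 4.88 and 24.4 ± 13.5 CPM (edgeR adjusted p = 0.122).

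Of 21 partners in cleavage and signalling, 4 rose and 2 fell, near the 12.1% and 14.1% of all genes. Without the P0 samples 1 rose and 1 fell (10.2% and 11% of all genes). Without P21 replicate 1 or replicate 2 there were 2 that rose (22.9% and 22.4% of all genes called in either direction). Without P0 replicate 3 or P21 replicate 2, 1 fell (24.4% and 22.4% of all genes called in either direction). Cyfip2 (174 ± 22.1 to 317 ± 25.5 CPM) and Nckap1 (111 ± 4.37 to 178 ± 32.1 CPM), subunits of the WAVE complex, rose together with the kinase Ptk2 (24.97 ± 14.3 to 70.6 ± 28.7 CPM) and the gamma-secretase subunit Psen2 (edgeR trend adjusted p = 0.00252, 0.0190, 0.0157 and 0.0426). For P21 against P0 alone, Nckap1 and Psen2 did not pass (edgeR adjusted p = 0.0860 and 0.0862). Marcks, a membrane and actin-linked substrate of protein kinase C, fell from 888 ± 47.5 to 163 ± 51.5 CPM with a slope of -0.12 per day. The WAVE subunit Wasf1 fell from 83.3 ± 41.9 to 32.7 ± 11.2 CPM (edgeR adjusted p = 0.0184). Adam10, the protease that sheds the extracellular part, had 86.3 ± 11.48 and 92.2 ± 18.1 CPM (edgeR adjusted p = 0.593).

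Of 17 other genes of self-avoidance and neurite adhesion, 1 rose and 6 fell, against 12.1% and 14.1% of all genes, and 3 slopes were above 0 (17.6%, against 44.9% of all genes). Chl1 (532.7 ± 17.4 to 72.9 ± 28.9 CPM) and L1cam (142 ± 28.1 to 31.0 ± 10.1 CPM), adhesion molecules of growing axons, fell with slopes of -0.14 and -0.12 per day. Robo2, a receptor for Slit2 in PC dendrite self-avoidance, fell from 274 ± 142 to 66.3 ± 16.2 CPM (edgeR adjusted p = 0.00145). Robo1 fell with a slope of -0.20 ± 0.065 (SE) per day (edgeR trend adjusted p = 0.0270). It was low and uneven, at 14.1 ± 21.9 CPM at P0 (1.42 to 39.5) and 0.770 ± 0.842 CPM at P21. It passed neither for P21 against P0 nor for any change (edgeR adjusted p = 0.0641 and 0.233). Slit2 had 31.5 ± 9.94 and 5.80 ± 7.64 CPM (edgeR adjusted p = 0.0673), Dscam 82.0 ± 25.1 and 46.4 ± 8.18 CPM (adjusted p = 0.126) and Dscaml1 1.25 ± 0.0835 and 0.854 ± 1.48 CPM (adjusted p = 0.924). Celsr2, a seven-pass cadherin, rose from 160.2 ± 48.9 to 262 ± 22.6 CPM (edgeR adjusted p = 0.00707). The alpha and gamma rows thus rose over ages at which 6 of these 17 genes fell, and whether the 2 sets differ was not tested.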

How the data were processed

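Whole-number counts per gene were deposited by the authors, made per the labels and methods by trimming with cutadapt 1.2.1, aligning to GRCm38/mm10 with GSNAP and counting with HTSeq 0.5.3p9 in its intersection-strict mode. The annotation release is not given in the sources used here, and the library kit does not mark strand. Here symbols came from GENCODE M21 (36639 of 38561 identifiers matched). Reads outside genes (16.7-29.8% of those counted) and ambiguous reads (1.16-1.57%) stayed out of library sizes. The share outside genes differed with age, at 24.1-29.8% for P0, 20.1-21.2% for P4 and 21.5-23.4% for P8. It was 16.7-19.0% for P14 and 17.2-19.1% for P21, and its part in the results was not tested.

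Counts were tested with edgeR 4.0.16 in R 4.3.3 (TMM, filterByExpr by time point, quasi-likelihood F tests, Benjamini-Hochberg over 14293 genes, threshold 0.05), with postnatal day as a number, the time point as a factor, and contrasts of it. The code was tested on simulated counts. Levels are CPM of the TMM-scaled library size; levels per length use total counts and exon bases that no other counted gene covers. Genes were named by rule: the 3 highest beta genes per length, each called member, the C-type members, the 3 steepest called genes each way of each list with Ctcf, Rad21, Smchd1, Dnmt3b, Setdb1, Wiz, Dscam, Dscaml1, Robo2 and Slit2, and the most abundant gene of each marker list; other names serve as examples. The members and lists were chosen with earlier results of these data known. Alternatives were DESeq2 1.42.0, limma-voom 3.58.1, relative log expression (RLE) scaling, no filter, a replicate block, log2(day + 1), samples left out, full exon length and a minimum of 3 counts, and, added after seeing the data, thinning to equal beta reads. Replicates differed beyond counting error (mean chi-square per gene 17.4-56.5), so each counted as 1 sample. Floors and intervals cover counting error only. No sequence is shown.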

Additional observations from a re-analysis of the deposited data

How the results depend on the processing

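The alpha and gamma rows were called rising under every setting of the trend test, with slopes of 0.036-0.045 and 0.053-0.064 when 1 sample was left out. The count of rising rows went from 3 to 10 by limma-voom (15.7% of all genes). It lay between 2 and 4 on leaving out 1 sample (22.4% to 26.0% of all genes called in either direction). The count for any change went from 3 to 7 by DESeq2 (27.5% of all genes) and 5 by limma-voom (23%). The 2 calls between P0 and P4 became 0 to 2 on leaving out 1 sample (1.24% to 2.02% of all genes). DESeq2 called 1 row from P4 to P8 (3.47% of all genes) and 2 from P8 to P14 (5.9%). Leaving out 1 sample gave 0 to 1 by edgeR from P8 to P14 (1.08% to 2.94% of all genes).

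Slopes changed sign for genes not called: Pcdhb7 to 0.077 by limma-voom and to 0.018 without P0, Pcdhb9 to -0.00070 and Pcdhb20 to -0.0048 without P0, with leave-one-out ranges of -0.045 to 0.025 (Pcdhb7) and -0.018 to 0.027 (Pcdhb20, below 0 without P0 replicate 1 at -0.0062, P4 replicate 1 at -0.0040, P4 replicate 2 at -0.0019 and P21 replicate 1 at -0.018). The P21 over P0 values with total counts were 0.46 and 0.85 for the alpha and gamma rows. Requiring 3 counts moved the beta genes detected at P21 from 19.3 to 18.4, and thinning to equal beta reads, chosen after seeing the data, to 19.05. Of the lists, without P0 the falling regulators went to 2, the rising partners to 1 and the falling partners to 1. Over all genes 10.2% then rose and 11% fell. With log2(day + 1) the rising partners were 2 and the rising self-avoidance genes 0 (23.3% of all genes called in either direction). Leaving out 1 sample gave 2 to 4 rising and 1 to 3 falling partners (22.4% to 26.0% of all genes called in either direction). The causes were not tested.

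Same-numbered replicates of different time points did not deviate together over all genes (mean r = -0.0036 over 30 pairs, -0.033 to 0.055, against 0.0018 for other pairs). Such an r cannot show a batch that moved only some genes, and the sample titles give the replicate number alone. With a replicate block the trend called 4 rows rising in place of 3 (25.4% of all genes called in either direction, 26.2% without the block). The P0 to P4 step then called 0 in place of 2 (1.58% of all genes, 1.97% without the block). Low read numbers limit the precision of single beta values, and so does the spread left after counting error.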

Other observations

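Other annotated genes lie within the span of the 3 clusters. Taf7, a general transcription factor subunit between the beta and gamma genes, held 73 to 319 reads per sample with a slope of -0.028 ± 0.019 (SE) per day (edgeR adjusted p = 0.335). Gm26672, on the minus strand across gamma exons, held 8 to 72 reads (edgeR adjusted p = 0.879), and Gm10545 and Gm10544, on the minus strand of the alpha cluster, held 0 to 7 and 0 to 10 reads. The libraries do not mark strand, so reads of these genes and of the protocadherin exons they overlap cannot be told apart. The long noncoding RNA 3222401L13Rik, just before the gamma cluster, had reads in 8 of 15 samples (edgeR adjusted p = 0.910). Slc25a2, an ornithine carrier, had 96 reads over 5 samples, and the small nucleolar RNA Gm24401 had none.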
